A study of Homo sapiens and Mus musculus with 7 samples.

Results

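The genes described are 10 well known targets of the transcription factor NF-kB: the CXC chemokines CXCL1, CXCL2, CXCL3 and CXCL8, the CC chemokines CCL2 and CCL20, the cytokines IL6 and LIF, the prostaglandin synthase PTGS2 and the NF-kB inhibitor NFKBIA. They were taken as the probe sets annotated with exactly 1 of these symbols, in mouse with the same symbol regardless of case. In the human array table all 10 were found, among 19775 genes, with 15 probe sets. Among the 18193 genes of the mouse arrays, 9 were found, with 17 probe sets, and CXCL8 had no entry under that symbol. The arrays compared cells and tissue with and without Fas (FAS in human), the death receptor also known as CD95. HeyA8, an ovarian cancer cell line, was measured as a PLKO control (PLKO is a lentiviral hairpin vector) and as lines with FAS stably knocked down by the hairpin shRNA4 or by the hairpin shRNA6. HepG2, a liver cancer cell line, was measured as a PLKO control and with shRNA6. The labels call the hairpin lines knock-out in one field and knock-down in another. Livers came from male C57/BL6 mice aged 2 months, one wild type and one Fas knock-out, whose allele is not described in the sources used here. Every group was represented by 1 array. Single comparisons therefore have no replicates, and precision is limited by the number of arrays.

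NF-kB is held in the cytoplasm by inhibitors of the IkB family, of which NFKBIA (IkB alpha) is the best known. Signals from tumour necrosis factor, interleukin 1 or Toll-like receptors activate a kinase complex that marks the inhibitor for destruction, and the freed dimers bind kB sites at chemokine and cytokine genes. NFKBIA is itself a target and closes a negative feedback loop, and Fas can feed into the same pathway besides its role in apoptosis.

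FAS had a signal of 2104 in the HeyA8 control, 1184 with shRNA4 and 856 with shRNA6, and of 1087 in the HepG2 control and 631 with shRNA6. Mouse Fas had 560 in the wild type and 169 in the knock-out, and no source used here says whether its probe set lies in the altered region. Signals are array intensities in arbitrary units, and the median probe set lay between 57.8 and 63.4 on the human arrays and between 75.2 and 79.9 on the mouse arrays. All 7 hepatocyte markers on the array were above the array median in HepG2, with summed signals of 129882 and 131985 against 156 to 268 in HeyA8. In HeyA8, 7 of 8 mesenchymal and ovarian carcinoma markers were above the median, and the eighth, MUC16, lay between 2.99 and 4.66. HepG2 had 7 and 6 of the 8 above the median too, and VIM (vimentin) set the lines apart, with at least 22006 in HeyA8 and at most 87.2 in HepG2. Leukocyte markers summed to between 340 and 488 on the human arrays, with PTPRC, the pan-leukocyte marker, below the median on all 5.

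Promoter sequence is shown first, because the genes were grouped as NF-kB targets and the 4 CXC chemokines lie in a single cluster on chromosome 4. RefSeq promoters (GRCh38.p14) were at hand for 8 of the 10 genes; CCL2 and LIF had no entry. In the 250 bases before the transcription start, the kB motif GGNNTTTCC, searched on both strands, was found in 7 of these 8 genes and in 1926 of all 35116 promoters (5.48%). The exception was PTGS2, which had no match in this window. The stretches of 59 bases below run 5′ to 3′ on the gene's strand, with kB matches in capitals, at chr4:73869290-73869348 (plus strand) for CXCL1, chr4:74099239-74099297 (minus) for CXCL2, chr4:74038734-74038792 (minus) for CXCL3 and chr4:73740453-73740511 (plus) for CXCL8.
CXCL1: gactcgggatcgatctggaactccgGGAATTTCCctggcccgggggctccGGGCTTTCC
CXCL2: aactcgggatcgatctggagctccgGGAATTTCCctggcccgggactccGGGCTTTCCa
CXCL3: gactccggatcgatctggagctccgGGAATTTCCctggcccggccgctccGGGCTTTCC
CXCL8: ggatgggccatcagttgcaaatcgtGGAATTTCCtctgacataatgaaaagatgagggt
CXCL1, CXCL2 and CXCL3 each held the same pair of matches, GGAATTTCC and, nearer the start, GGGCTTTCC. Set against each other without gaps, the CXCL1 and CXCL3 stretches shared 55 of 59 bases (93.2%) and the CXCL1 and CXCL2 stretches 48 (81.4%). CXCL8 held GGAATTTCC once, and its stretch shared 24 bases (40.7%) with that of CXCL1. The AP-1 motif TGANTCA, which equals its own reverse complement, was found in CXCL8 alone of the 8 genes, 137 to 131 bases before the start, and in 2308 of all promoters (6.57%).

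The other 3 genes with a match are shown because they lie on other chromosomes and their arrays gave other patterns: CCL20 at chr2:227813738-227813796 (plus), IL6 at chr7:22727103-22727161 (plus) and NFKBIA at chr14:35404797-35404855 (minus).
CCL20: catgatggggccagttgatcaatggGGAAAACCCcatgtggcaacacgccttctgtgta
IL6: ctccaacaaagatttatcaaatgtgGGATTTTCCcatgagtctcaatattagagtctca
NFKBIA: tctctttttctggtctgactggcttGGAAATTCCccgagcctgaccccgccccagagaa
CCL20 held its match on the opposite strand, which reads GGAAAACCC on the strand printed. In NFKBIA the match printed, GGAAATTCC, was also on the opposite strand, and a further match, GGACTTTCC, lay 242 to 234 bases before the start. A match describes the letters and does not show that NF-kB was bound there.

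The CXC chemokines, which recruit neutrophils through the receptors CXCR1 and CXCR2, were bright in HeyA8 and dim in HepG2. CXCL1 had signals of 6482 in the HeyA8 control, 7566 with shRNA4 and 11238 with shRNA6, and of 41.7 in the HepG2 control and 27.7 with shRNA6. CXCL3 had 626, 562 and 1298 on the same HeyA8 arrays and 7.80 and 3.93 in HepG2. CXCL8 (interleukin 8) had 2763, 2093 and 5139.7 in HeyA8 and 167 and 91.8 in HepG2. For these 3 genes every HeyA8 array was above both HepG2 arrays, and within HeyA8 shRNA6 was the highest. CXCL2 has 3 probe sets; the one used here gave 109.5, 138 and 195 in HeyA8 and 4.85 and 4.40 in HepG2. Its brightest probe set, marked as prone to cross-hybridisation, gave 4722, 3780.0 and 6811 in HeyA8 and 10.5 and 6.20 in HepG2. CXCL1, CXCL2 and CXCL3 are close in sequence, so signal may be shared between their probe sets.

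**Figure D1:**
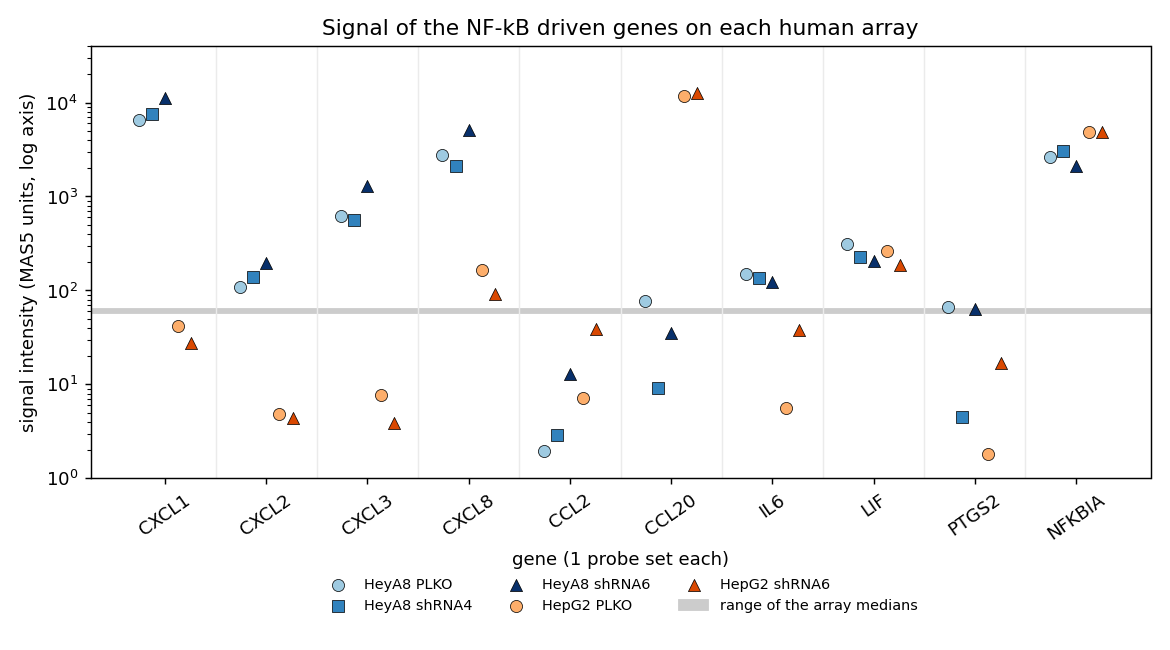
Signal intensity (log axis) of the 10 genes, 1 probe set each, on the 5 human arrays; each point is 1 array, and the grey band spans the array medians, 57.8 to 63.4. The 4 CXC chemokines are high on the HeyA8 arrays and CCL20 on the HepG2 arrays, at 11648 and 12634.

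Within the cluster, signal above the array median was found for these 4 genes only. Of the 9 protein-coding genes in the span, in the order CXCL8, CXCL6, PF4V1, CXCL1, PF4, PPBP, CXCL5, CXCL3 and CXCL2, the other 5 were below the median on all 5 human arrays. CXCL5 and CXCL6, the neutrophil chemokines among them, reached at most 33.3 and 54.0, both in HepG2 with shRNA6.

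With shRNA6 in HeyA8 all 4 CXC chemokines were above the control, whereas with shRNA4 they lay on both sides of it. Differences are log2 ratios of signal plus a constant of 12.6, which understates the differences of dim genes. With shRNA6 the log2 ratio was 0.79 for CXCL1, 0.77 for CXCL2, 1.04 for CXCL3 and 0.89 for CXCL8. With shRNA4 it was 0.22, 0.30, -0.15 and -0.40 in the same order. Both comparisons share the one control array, so a high or low control moves both the same way. The bright CXCL2 probe set gave -0.32 with shRNA4 and 0.53 with shRNA6, so the sign with shRNA4 depended on the probe set. The other CXCL8 probe set, with signals of 7785, 5583 and 11131, gave -0.48 and 0.52.

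Setting shRNA6 directly against shRNA4 leaves the control out, and here CXCL3 (log2 ratio 1.19), CXCL8 (1.29) and the prostaglandin synthase PTGS2 (2.17) were at least 2-fold higher with shRNA6. CXCL1 was at 0.57 and CXCL2 at 0.47, or 0.85 by its bright probe set. The other CXCL8 probe set gave 0.99, just under 2-fold. Of the 8 genes with at least 1 of the hairpin arrays above its median, 3 were at least 2-fold higher and 0 lower, against 2.26% higher and 2.74% lower among the 12242 genes so kept. Their median log2 ratio was 0.52, and that of all genes -0.02. Ordered from the highest to the lowest ratio of the 12242 genes, PTGS2 stood at place 22, CXCL8 at 171, CXCL3 at 195, CXCL1 at 801 and CXCL2 at 1095, LIF at 7887, IL6 at 8139 and NFKBIA at 11233. PTGS2 was kept through its shRNA6 array alone, so it could only be higher there. Nothing is read from its place or from its part in the count of 3. Its other probe set, below the median on both arrays, gave 0.42. Among bright genes, with at least 1 array above its 75th percentile, 4 were listed (CXCL1, CXCL3, CXCL8 and NFKBIA), and CXCL3 and CXCL8 were at least 2-fold higher, against 0.404% of 7673 bright genes higher and 0.326% lower. The hairpin arrays also differed in FAS itself, by a log2 ratio of -0.46, and the part of that in these ratios was not tested. Other FAS probe sets above the median on all 5 human arrays gave -0.36, -0.46 and -1.05.

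**Figure D2:**
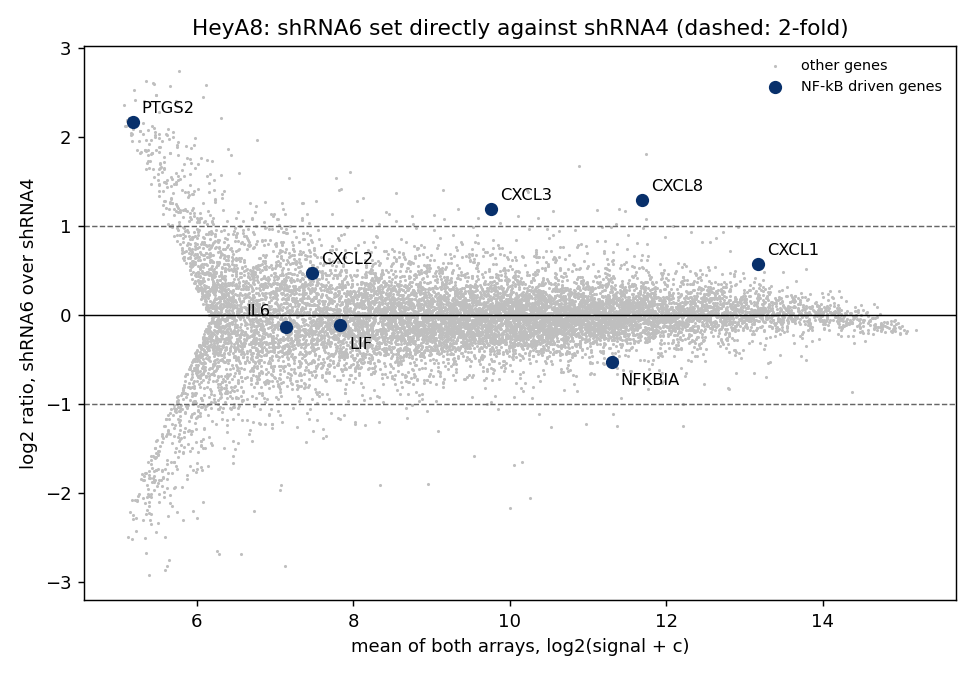
HeyA8 with shRNA6 against HeyA8 with shRNA4: log2 ratio (vertical) against the mean log2 signal of both arrays (horizontal), 1 point per gene, with the NF-kB driven genes in dark blue. CXCL8 (1.29), CXCL3 (1.19) and PTGS2 (2.17) lie above the 2-fold line, and NFKBIA (-0.53) lies below 0. PTGS2 was kept through its shRNA6 array alone, so it could only lie above 0.

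The CC chemokine CCL20, which attracts CCR6-bearing lymphocytes and dendritic cells, had the opposite distribution over the cell lines. Its signal was 77.1 in the HeyA8 control, 9.27 with shRNA4 and 35.6 with shRNA6, and 11648 in the HepG2 control and 12634 with shRNA6. Both HeyA8 hairpin arrays were below their control and below the array median, with log2 ratios of -2.04 and -0.90, and the HepG2 arrays were nearly level, at 0.12. CCL20 was kept in the HeyA8 comparisons through the control array alone. CCL2, the monocyte chemoattractant, was below the median on every human array, at 1.94, 2.86 and 12.9 in HeyA8 and 7.25 and 39.0 in HepG2, so no ratio is drawn from it.

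In HeyA8 the cytokines lay closer to their control. IL6, the inducer of the acute phase response in liver, had signals of 151, 135 and 122 in HeyA8 (control, shRNA4, shRNA6) and 5.56 and 38.2 in HepG2, where both arrays were below the median. Its HeyA8 log2 ratios were -0.14 and -0.28. LIF, an IL6 family cytokine that acts through LIFR and IL6ST, had 312, 225 and 205 in HeyA8 and 262 and 188 in HepG2. LIF, CXCL8 and NFKBIA were the 3 genes above the median on all 5 arrays, and of them LIF alone was lower on each knockdown array than on its own control, with log2 ratios of -0.45, -0.57 and -0.45. Both HeyA8 ratios share 1 control array. Of all genes kept, 46.6%, 48.8% and 51.7% were below 0 in these comparisons, and the share below 0 in all of them was not counted. The LIF signals of the cell lines overlapped.

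PTGS2 (cyclooxygenase 2, the inducible enzyme of prostaglandin synthesis) had 66.0 in the HeyA8 control, 4.52 with shRNA4 and 64.2 with shRNA6, and 1.81 and 16.97 in HepG2. The shRNA4 array was thus far below the other HeyA8 arrays, whose signals were close to the array median. The log2 ratios to the control were -2.20 with shRNA4 and -0.03 with shRNA6. A further PTGS2 probe set was below the median on every array and ran differently in HeyA8, where the control (2.95) was lower than shRNA4 (25.8) and shRNA6 (38.8). The low PTGS2 value with shRNA4 therefore rests on 1 probe set on 1 array.

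NFKBIA, the inhibitor, had signals of 2627 in the HeyA8 control, 3019 with shRNA4 and 2089 with shRNA6, and of 4893 and 4851 in HepG2. In HeyA8 its order over the arrays was the reverse of that of CXCL3 and CXCL8: shRNA4 was highest and shRNA6 lowest. The log2 ratios were 0.20 with shRNA4, -0.33 with shRNA6 and -0.01 in HepG2.

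**Figure D3:**
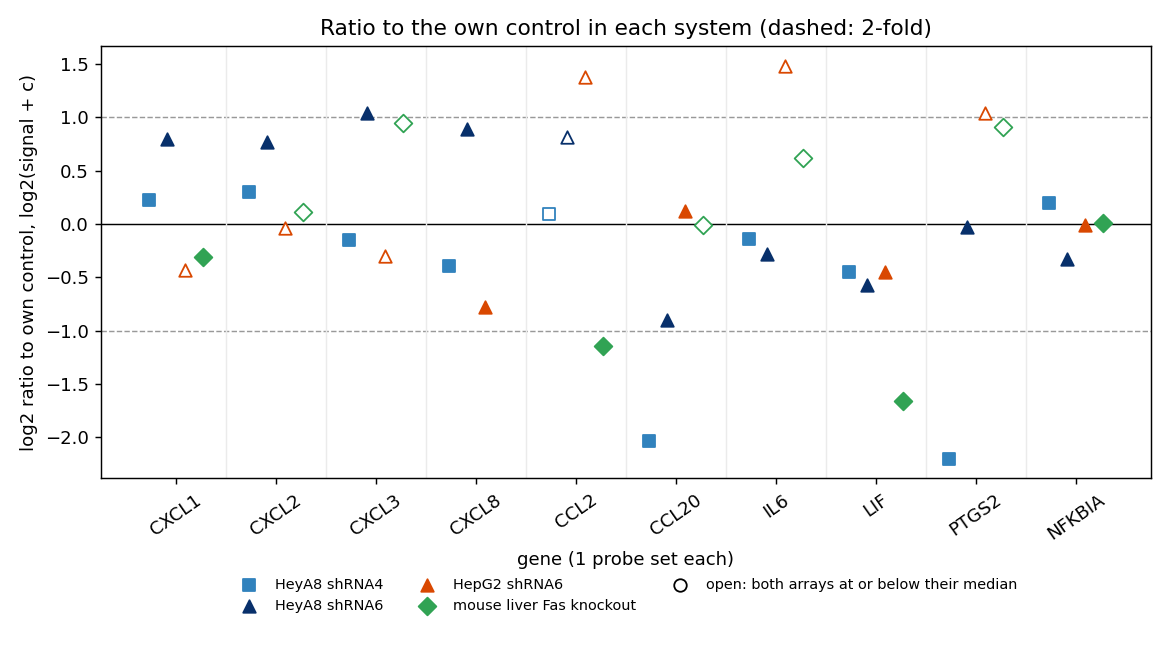
Log2 ratio of each gene to its own control in HeyA8 with shRNA4, HeyA8 with shRNA6, HepG2 with shRNA6 and Fas knock-out mouse liver, 1 point per comparison; open symbols mark genes with both arrays at or below their median. LIF is the gene with all 4 points below 0 and filled, at -0.45, -0.57, -0.45 and -1.66. Its mouse point was kept through the wild-type array alone, so it could only be below 0. Both HeyA8 points share 1 control array.

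Counted by size, few of the genes stood out from their own control. With shRNA4 in HeyA8, 9 of the 10 genes were kept, of which 0 were at least 2-fold higher and 2 as much lower (CCL20 and PTGS2), against 2.37% higher and 2.38% lower of 12175 genes. Both were kept through the control array alone and could only be lower, so nothing is read from that count. Their median log2 ratio was -0.15, and that of all genes 0.03. With shRNA6, 9 were kept, of which 1 was at least 2-fold higher (CXCL3) and 0 lower, against 2.02% and 2.21% of 12152 genes, with medians of -0.03 and 0.01. In HepG2, 4 were kept (CXCL8, CCL20, LIF and NFKBIA) and 0 were at least 2-fold higher or lower, against 2.65% and 2.56% of 12167 genes, with medians of -0.23 and -0.01. CXCL8 was the furthest from 0 in HepG2, at -0.78, or -1.35 by its other probe set, with signals of 821 and 313.

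The 5 human arrays were also fitted together with limma. Its p-values measure the spread between these samples, that is how far the hairpins and the lines disagree, which may be technical and is no spread of replicate cultures. No gene passed an adjusted p of 0.05 for a common effect of FAS knockdown (0% of 13936 genes; 568 had an unadjusted p below 0.05), and of the 9 listed genes tested LIF alone had an unadjusted p below 0.05. For LIF the common log2 effect was -0.49 ± 0.20 (SE; limma adjusted p = 0.991), lower in 3 of 3 comparisons, of which those in HeyA8 share 1 control array. For FAS it was -0.93 ± 0.17 (SE; limma adjusted p = 0.991, unadjusted p = 0.000553). The effect in HepG2 was set against that in HeyA8 by an interaction term, for which no gene passed (0% of 13936; 613 with an unadjusted p below 0.05). The interaction was 1.58 ± 0.71 (SE) for CCL20, 1.70 ± 0.69 for IL6, -1.03 ± 0.76 for CXCL8 and -0.94 ± 0.41 for CXCL1, each with a limma adjusted p of 0.999. In HepG2 IL6 (5.56 and 38.2) and CXCL1 (41.7 and 27.7) were below the median on both arrays, so their interactions have little support.

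The cell lines themselves differed widely, in 30.0% of the 13936 genes as higher in HepG2 and in 28.0% as lower at an adjusted p of 0.05. Of the 9 listed genes tested, 2 were higher in HepG2 and 5 lower. CCL20 was higher in HepG2 by 7.93 ± 0.42 on the log2 scale (SE; limma adjusted p = 1.83e-06, 2 HepG2 against 3 HeyA8 arrays). NFKBIA was higher by 0.92 ± 0.15 (limma adjusted p = 0.00113). CXCL1 differed by -7.44 ± 0.24 (limma adjusted p = 1.70e-07), CXCL3 by -5.40 ± 0.39, CXCL8 by -4.54 ± 0.37, CXCL2 by -3.14 ± 0.42 and IL6 by -2.20 ± 0.46 (limma adjusted p = 0.00398). LIF, at -0.21 ± 0.20 (limma adjusted p = 0.414), and PTGS2, at -1.22 ± 0.84 (limma adjusted p = 0.252), did not pass. CXCL1, CXCL2, CXCL3, IL6 and PTGS2 entered the fit through HeyA8 arrays alone, so a lower value in HepG2 was partly set by the filter. Leaving out the HeyA8 shRNA4 array, PTGS2 was at -1.92 and passed.

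The genes whose ratios ran most like those of a listed gene were sought by the Euclidean distance over the 3 human log2 ratios, among 8928 bright genes. Nearest to CXCL8 were CD24 (distance 0.320), SYTL2 (0.324), CORO2A (0.334), IL1R1 (0.432) and CRIP1 (0.433). CD24, a surface glycoprotein, had signals of 98.0, 76.8 and 176 in HeyA8 and of 3530.0 and 1684 in HepG2. SYTL2, a synaptotagmin-like protein of vesicle transport, had 938, 736 and 1607 in HeyA8 and 213 and 148 in HepG2. The other 5 CD24 probe sets gave log2 ratios of 0.04 to 0.78 with shRNA6 in HeyA8 and of -1.75 to -0.96 in HepG2, the same signs as CXCL8. With shRNA4 they gave -0.95 to 0.13, so not all of them shared the sign of CXCL8 there. A further CORO2A probe set gave -0.24 with shRNA6 in HeyA8, against 0.74 for the one used. Nearest to CCL20 were SLC6A8, a creatine transporter, at 0.333, then PARD6B (0.545), ITPKA (0.610), CRYAA (0.611) and KLHL24 (0.637). ITPKA had 43.2, 5.75 and 10.5 in HeyA8 and CRYAA 47.8, 3.61 and 8.89, all below the array median. Like IL1R1 above, they were bright through HepG2 alone, so their HeyA8 ratios have little support. CD24, CORO2A, CRIP1 and SLC6A8 were also bright through HepG2 alone. Their HeyA8 signals were at most 181, under the 75th percentiles of the HeyA8 arrays (371 to 388). The other SLC6A8 probe sets gave -0.78 and -0.61 with shRNA4, against -2.12 for the one used, and -0.14 and -0.17 with shRNA6, against -0.58, so the likeness did not hold for them. The likeness rests on 3 ratios, and the HeyA8 pair share a control.

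The rest of the pathway was described by lists. Of the NF-kB subunits and kinases, 17 were kept in each human comparison and 0 were at least 2-fold different. Of all genes only 2.02% to 2.74% were so in each direction, so nothing is read from that 0. In the direct comparison of hairpins 11 of 17 were below 0, with a median of -0.18, beside 53.0% of all genes and a median of -0.02. MAP3K7 (TAK1, the kinase upstream of the IkB kinases) had 2570 in the HeyA8 control, 1530.3 with shRNA4 and 2625 with shRNA6, so shRNA4 was the low array. REL differed between probe sets: the one used gave -0.73 for shRNA6 against shRNA4, and 3 others kept in that comparison gave 0.01, 0.29 and 0.43. For the cell line term 4 of 17 genes were higher in HepG2 and 6 lower, beside 30.0% and 28.0% of all genes tested.

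Among the inhibitors and feedback genes 9 of 11 kept were below 0 with shRNA6 against shRNA4, with a median of -0.24, beside the 53.0% of all genes. NFKBIZ, a nuclear IkB protein that is needed for some IL6 and chemokine genes, ran the other way, with 2821, 1820.5 and 3007 in HeyA8 and a direct ratio of 0.72. Its other probe set had 915, 696 and 869 in HeyA8 and a smaller direct ratio, 0.31. TNFAIP3 (A20, a ubiquitin-editing inhibitor of the pathway) had 487, 384 and 378 in HeyA8 and 1539 and 1350.2 in HepG2, and its cell line difference was 1.72 ± 0.14 (SE; limma adjusted p = 1.62e-05). In this list 2 of 11 genes tested were higher in HepG2 and 7 lower, beside the same 30.0% and 28.0% of all genes.

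Other NF-kB responsive chemokines and cytokines were mostly below the HeyA8 control with either hairpin: 9 of 9 kept with shRNA4, with a median of -0.68, and 8 of 9 with shRNA6, with a median of -0.37. Below 0 stood 46.6% of all genes kept with shRNA4 and 48.8% with shRNA6, and both comparisons share the control array. The filter partly set these counts, through CSF3 with shRNA4 and CXCL10 with either hairpin. IL1B, the interleukin that activates NF-kB through IL1R1, had 6835, 3694 and 5511 in HeyA8 and 23.1 and 102 in HepG2. Its other probe set gave nearly the same HeyA8 log2 ratios, -0.82 and -0.22 against -0.89 and -0.31. CSF3, the granulocyte growth factor, had 129, 21.1 and 96.9 in HeyA8, a log2 ratio of -2.08 with shRNA4. In that comparison the control alone was above the median, so CSF3 could only be lower. CXCL10, an interferon-induced chemokine, had 64.4, 39.1 and 7.08 in HeyA8, so here shRNA6 was the low array, and the control alone was above the median. CXCL10 could thus only be lower with either hairpin. In the direct comparison 6 of 8 kept were above 0, with a median of 0.57, beside 47.0% of all genes above 0. CSF3 was kept there through its shRNA6 array alone, so it could only be above 0. For the cell line term 3 of 12 were higher in HepG2 and 5 lower, beside the same 30.0% and 28.0% of all genes. The filter partly set these counts. CSF3, CXCL10, IL1A, TNF and TSLP entered the fit through HeyA8 alone, and CX3CL1, CXCL16 and IL32 through HepG2 alone. IL1B was at -6.28 ± 0.45 (SE; limma adjusted p = 9.15e-06).

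Of the further responsive genes 14 were kept with shRNA4, 7 above and 7 below 0, and 15 with shRNA6, 5 above and 10 below, beside the shares of all genes below 0 given above (46.6% and 48.8%). Complement C3 had 149, 61.0 and 115 in HeyA8 and 16857 and 15469 in HepG2. MMP1, a collagenase, had 621, 330.2 and 417 in HeyA8 and 39.7 and 21.5 in HepG2, lower than its control on each knockdown array but below the array median in HepG2. For this list 5 of 15 genes were higher in HepG2 and 6 lower, beside the same 30.0% and 28.0% of all genes. MMP1, BCL2A1, PTX3 and TNFAIP2 entered the fit through HeyA8 alone, so a lower value in HepG2 was partly set by the filter.

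Receptors were compared as ligand receptors and as upstream receptors. Of the ligand receptors 5 of 8 tested were higher in HepG2 and 2 lower, beside the same 30.0% and 28.0% of all genes. CCR6 and CXCR1 entered the fit through HepG2 alone and PTGER1 and PTGER4 through HeyA8 alone, so the filter partly set these counts. LIFR, the receptor of LIF, had 459, 256 and 299 in HeyA8 and 555 and 544 in HepG2, and IL6R had 219.9, 380.0 and 190.1 in HeyA8 and 663 and 697 in HepG2. Of the upstream receptors 2 of 11 were higher in HepG2 and 6 lower, beside the same 30.0% and 28.0%. The filter partly set these counts too, as IL1R1 entered through HepG2 alone and TLR3 and TLR4 through HeyA8 alone. IL1R1 was at 24.7, 14.4 and 40.9 in HeyA8, below the median, and at 1621 and 807 in HepG2, a log2 ratio of -0.99 with shRNA6 there and -1.31 by another probe set. TLR2 in HepG2 was at 36.7 without and 123 with the hairpin (log2 ratio 1.46), above the array median with the hairpin alone.

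Proteins that bind AU-rich elements, sequences that shorten the life of many chemokine and cytokine messages, were nearly level. With shRNA6 in HepG2 7 of 7 were below 0, with a median of -0.09, against 51.7% of all genes. For the cell line term 2 of 7 were higher in HepG2 (among them ZFP36L2) and 1 lower (ZFP36L1), beside 30.0% and 28.0% of all genes. Of the other genes of prostaglandin synthesis PTGES, the synthase of prostaglandin E2 downstream of PTGS2, had 9.77, 45.1 and 90.9 in HeyA8, above the array median with shRNA6 alone. Its other probe set was dim and flat there, at 14.2, 11.5 and 13.2. In this list 0 of 5 genes tested were higher and 1 lower in HepG2, beside the same 30.0% and 28.0%. PLA2G4A entered the fit through HeyA8 alone, so a lower value in HepG2 was partly set by the filter. For all of these lists, as for all genes, 0 members passed in the fits of the common effect and of the interaction.

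**Figure D4:**
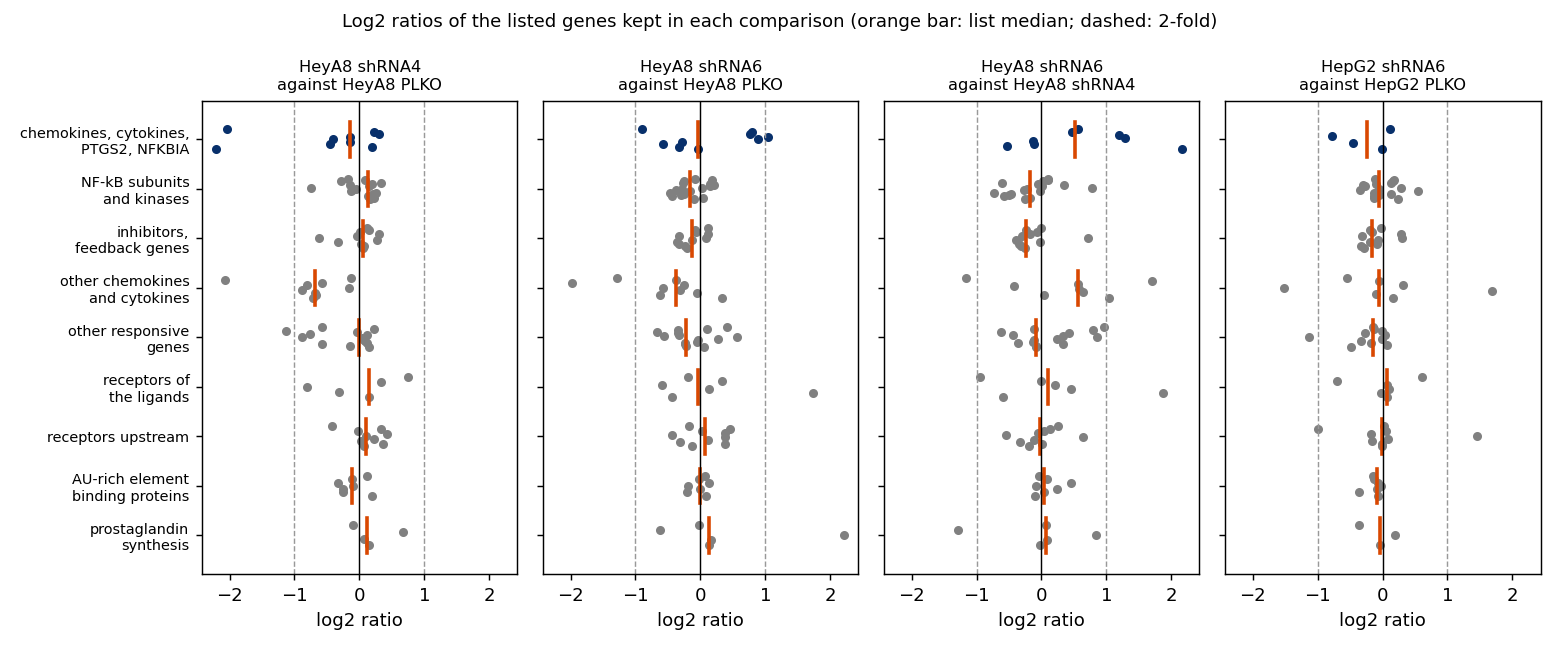
Log2 ratios of the genes kept in 4 human comparisons, by list, 1 point per gene, with the list median as an orange bar. The median of the NF-kB driven genes (dark blue) is -0.15 with shRNA4, -0.03 with shRNA6, 0.52 for shRNA6 against shRNA4 and -0.23 in HepG2.

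In mouse liver 4 of the 9 genes were kept, Cxcl1, Ccl2, Lif and Nfkbia. In the knock-out 0 of these were at least 2-fold higher and 2 as much lower, against 1.77% and 2.57% of 12047 genes. Differences here use a constant of 20.5. Lif had 100.2 in the wild type and 17.8 in the knock-out, a log2 ratio of -1.66, and its other probe set, below the median on both arrays, had 41.9 and 13.6. Ccl2 had 81.9 and 25.7, a log2 ratio of -1.15. Both were kept through the wild-type array alone, close to the array median, so that they could only be lower in the knock-out. Cxcl1, a mouse counterpart of the human CXC chemokines, had 1805.0 and 1454 (-0.31), with -0.17 and 0.09 from its other probe sets. Nfkbia had 9949 and 9990.4 (0.01), and its other 4 probe sets lay between -0.20 and 0.02.

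The remaining 5 mouse genes were below the median on both arrays. Cxcl2 had 45.7 in the wild type and 51.0 in the knock-out, Cxcl3 had 6.22 and 30.9, and Il6 had 12.4 and 29.95. Ccl20, which was bright in HepG2, had 10.7 and 10.5. Ptgs2 had 2.37 and 22.4 by one probe set and 16.3 and 5.33 by the other, so its probe sets ran opposite ways.

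Liver is a mixture of cell types, and in bulk RNA fewer cells of a type and less RNA per cell cannot be told apart. The leukocyte markers, 8 of 11 above the median in either liver, summed to 15263 in the wild type and 11992 in the knock-out. Csf1r had the highest signal of this list, 8109 and 5809, and so weighs most on its sum. Clec4f, a marker of liver macrophages, had 3427 and 2769.8, but Cd163, another macrophage marker, was higher in the knock-out, with 899 and 1008. Cd3e, Cd79a and Itgam were higher there too, but below the median on both arrays. The markers of sinusoidal endothelium and stellate cells summed to 8541 and 7238. The 7 hepatocyte markers found on the mouse arrays, with Hnf4a in place of the human TF, summed to 181634 and 184256. The part of these differences in the Ccl2 and Lif values was not tested.

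Among the ligand receptors in mouse 7 of 7 kept were below 0, where 52.7% of all mouse genes kept were, but Ccr6 and Il6st of these carry little weight. Ccr6, the receptor of Ccl20, had 81.5 and 15.1 and was kept through the wild-type array alone. Il6st, the shared receptor chain of Il6 and Lif, had 3938 and 1000.6, a log2 ratio of -1.95, but other probe sets gave 0.15, 0.33 and 1.14, so no direction can be given. Relb, a subunit of the alternative NF-kB pathway, had 82.2 and 23.2 (-1.23) and was also kept through the wild-type array alone, just above its median of 79.9. Tnip1, an inhibitor that works with A20, had 465 and 221 (-1.01), above the median on both arrays. Of the inhibitors and feedback genes 8 of 12 kept were below 0, with a median of -0.12, and of the other responsive chemokines and cytokines 7 of 9, with a median of -0.27, beside the same 52.7% and a median of -0.02 for all genes.

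**Figure D5:**
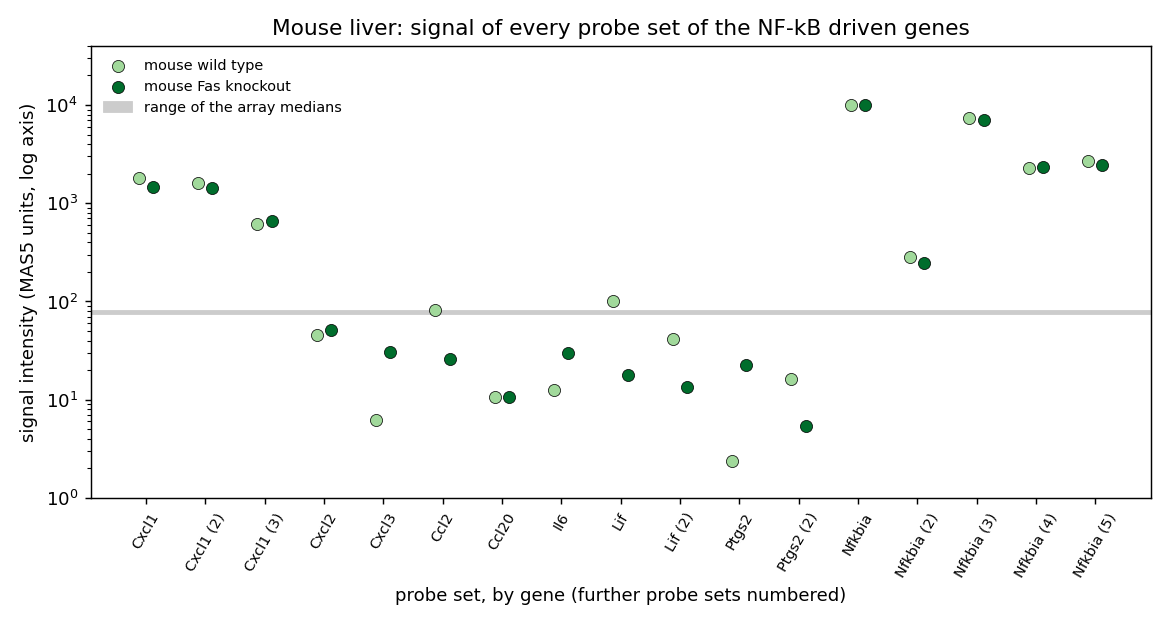
Signal intensity (log axis) of each of the 17 mouse probe sets in wild-type and Fas knock-out liver, 1 array each, with the array medians (75.2 to 79.9) as a grey band. Nfkbia and Cxcl1 are bright on both arrays, and Ccl2 (81.9 and 25.7) and Lif (100.2 and 17.8) lie near or below the band.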

How the data were processed

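Total RNA was measured on 5 human and 2 mouse Affymetrix arrays. Per the submitters' processing notes the authors used MAS5 to make the deposited intensities; no version or setting is given in the sources used here. No column went unmatched to a sample. Control probe sets (62 human, 64 mouse) were left out. Genes came from the platform annotation: 1 symbol was given for 41091 human and 34945 mouse probe sets, several for 1801 and 932, and none for 11721 and 9160. Of the human ones 41037 matched RefSeq by gene identifier and 0 changed. The probe set of highest mean signal stood for a gene, _x_at sets only where no other existed. Log2 ratios used signal plus the 25th percentile of the table. A gene was kept where at least 1 compared array exceeded its own median. With 1 array per group, genes were counted by size (2-fold).

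limma 3.58.1 (R 4.3.3) fitted cell line and knockdown (2 residual degrees of freedom, trended prior) and then their interaction (1 residual degree of freedom), with Benjamini-Hochberg adjustment over all genes; the cell line term was read after the data had been seen. The fits were tested on simulated data. The listed genes, lists and tests were chosen with earlier results of these data known. Named were the 10 genes and FAS, the 5 bright genes nearest to CXCL8 and to CCL20, and at most 4 genes per list and species, those with the largest absolute ratio. Clec4f, Csf1r, Cd163, Cd3e, Cd79a, Itgam, PTPRC, MUC16, VIM, CXCL5 and CXCL6 fall outside that rule. Alternatives were other pseudocounts, normalizations, filters, probe set rules, size thresholds and array sets. Python 3.11.15 was used for the rest (pandas 2.3.3, numpy 2.4.6; figures by matplotlib 3.10.9).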

Additional observations from a re-analysis of the deposited data

Results flagged for a closer look

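CCL20 was below its control with both HeyA8 hairpins, by log2 ratios of -2.04 and -0.90, and nearly level in HepG2, at 0.12. Over the alternative settings the HepG2 ratio ran from 0.0015 to 0.14. In HeyA8 CCL20 was kept through the control array alone, so it could only be lower there. The difference between the cell lines by the interaction term was 1.58 ± 0.71 (SE; limma adjusted p = 0.999), and both HeyA8 ratios share 1 control array.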

How the results depend on the processing

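Of 253 recomputed ratios of the listed genes over 34 main ratios, 245 moved little, 8 moved further and 0 reversed a called direction. The counts of genes at least 2-fold different were less stable. With shRNA4 in HeyA8 the count of 2 became 0 with the table median as pseudocount, 0 with the filter at the 75th percentile and 1 with the mean of all probe sets. With shRNA6 the count of 1 became 2 with the 10th percentile as pseudocount, 0 with the median, 5 at 1.5-fold and 0 at 3-fold. For shRNA6 against shRNA4 the count of 3 became 1 at 3-fold, 2 with the median as pseudocount, the stricter filter, the mean of all probe sets or _x_at probe sets allowed (CXCL8 lost in the last), and 4 without a filter. In HepG2 the count of 0 became 3 without a filter (CCL2, IL6 and PTGS2, all dim), 1 with the mean of all probe sets, 1 with _x_at probe sets allowed and 1 at 1.5-fold. In mouse liver the count of 2 became 0 with the median as pseudocount, 0 with the stricter filter, 1 with the mean of probe sets and 1 at 3-fold. For the common effect 2 genes in place of 0 passed when arrays were scaled to equal medians, a scaling that moved the median of all genes in HepG2 from -0.01 to -0.12. With shRNA6 in HeyA8 the median of the listed genes turned from -0.03 to 0.03 under that scaling and under quantile normalization, and was 0.84 with the filter at the 75th percentile (4 genes), 0.37 without a filter and 0.13 with the mean of all probe sets. The PTGS2 ratio of shRNA4 to control ran from -3.004 to -0.96 over pseudocounts, and that of CCL20 from -2.59 to -0.98. Each ratio rests on 1 array a side, and signals below the array median have little support.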
